A study of Mus musculus with 7 samples.

Results

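tRNA levels in differentiated glia, with oligodendrocytes (OLs) and astrocytes pooled as a single side, were compared with those in the progenitors both were made from, to find which tRNAs changed alike on leaving the progenitor state. The comparison used all 7 libraries of the series, namely 4 of differentiated glia (OLs, n = 2, and astrocytes, n = 2) and 3 of oligodendrocyte progenitor cells (OPCs). Every anticodon and isodecoder that averaged 1 RPM or more across the 7 libraries was included, which kept 50 of 52 anticodons and 192 of 217 isodecoders. RPM are reads of a tRNA scaled to 1000000 reads assigned to all tRNAs, cytosolic and mitochondrial, so each value is a part of the tRNA reads and not a number of molecules per cell.

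All cells were of mouse strain 129S/SvEv, and the OPCs were derived from epiblast stem cells of male embryos and grown with bFGF and PDGFA. OLs were made from OPCs over a few days with noggin, IGF-1, cyclic AMP, NT3 and thyroid hormone (T3), and astrocytes from OPCs over a few days with bFGF, Hb-EGF, CNTF and BMP4. The study describes a population of undifferentiated OPCs that remains in its OL cultures. Its methods derive both OL cultures from OPC replicates without saying which. The study also describes its astrocytes as made from the same OPCs, so the glia and OPC libraries are not fully independent. In such bulk cultures a smaller fraction of a cell type and a lower level per cell cannot be told apart. The tables list tRNAs only, so the cell types could not be checked against their marker mRNAs.

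The assay, QuantM-seq, ligates a double-stranded adapter to both ends of deacylated mature tRNAs before reverse transcription, circularization and sequencing. Between 1339021 and 2627351 reads per library were assigned to tRNAs, and a tRNA with no read could still have held up to 3 reads, which was worth between 1.14 and 2.24 RPM. Reads outside the cytosolic tRNAs made up 6.82%, 6.94% and 4.98% of tRNA reads in OPC replicates 1 to 3, 3.55% and 3.90% in OLs, and 7.74% and 7.88% in astrocytes. The OPC libraries thus sat between the OL and the astrocyte libraries. The mean was 5.77% ± 2.36 (SD, n = 4) in glia and 6.25% ± 1.10 (SD, n = 3) in OPCs, and the exact two-sided permutation test over the 35 splits gave p = 0.686, where the smallest possible value is 0.0571. The difference of -0.480 points changed sign without OL replicate 1 (0.259 points) or OL replicate 2 (0.142 points).

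Transfer RNAs carry amino acids to the ribosome and read codons with their anticodon. Each anticodon is usually encoded by several genes, transcribed by RNA polymerase III. Isodecoders are tRNAs that share an anticodon but differ elsewhere in the sequence, so an anticodon pool can hold its level while its isodecoders change. OPCs divide, OLs exit the cell cycle and synthesize myelin, and astrocytes support neurons and synapses. tRNA names are given here with U for T in the anticodon, and the final number of an isodecoder (Lys-UUU-2) is the deposited one.

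At the level of anticodons, few pools separated glia from OPCs. Of the 50 pools 2 passed the threshold (adjusted p under 0.05, limma on log2(RPM + 1)), or 4.0%, and both were higher in glia. These were Ile-AAU, an isoleucine tRNA whose wobble adenosine is deaminated to inosine, and Asp-GUC, the aspartate tRNA, whose wobble guanosine is replaced by queuosine. Neither reached an adjusted p under 0.01, and 8 pools had an unadjusted p under 0.05 (16.0%).

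Ile-AAU stood at 11981, 10461 and 10358 RPM in the 3 OPC libraries, 14127 and 14234 RPM in OLs, and 13170 and 13472 RPM in astrocytes. Every glia library was above every OPC library, and the OL libraries were the highest. The OPC mean was 10933 ± 909 RPM (SD, n = 3) and the glia mean 13751 ± 513 RPM (SD, n = 4). The level rose with a log2 change of 0.33 ± 0.09 (SE) and an adjusted p of 0.0495.

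Asp-GUC stood at 46444, 47388 and 42161 RPM in OPCs, 59387 and 57514 RPM in OLs, and 49417 and 62323 RPM in astrocytes. The groups again did not overlap, although astrocyte replicate 1 came close to the highest OPC library. The OPC mean was 45331 ± 2786 RPM (SD, n = 3) and the glia mean 57160 ± 5528 RPM (SD, n = 4). The level rose with a log2 change of 0.33 ± 0.09 (SE) and an adjusted p of 0.0495.

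Both calls were marginal. Asp-GUC passed in 7 and Ile-AAU in 6 of 18 fits, counting the reported fit, with log2 changes between 0.28 and 0.40 for Asp-GUC and between 0.29 and 0.40 for Ile-AAU. With limma 0 pools passed once OPC replicate 1, 2 or 3, OL replicate 2 or astrocyte replicate 2 was left out, with 5 to 10 at an unadjusted p under 0.05. Without astrocyte replicate 1, 7 passed.

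Other pools showed separate groups without passing. Over all 50 pools the glia and OPC libraries did not overlap for 9, or 18.0%, of which 6 were higher and 3 lower in glia. SeC-UCA, the tRNA that inserts selenocysteine at recoded UGA codons, stood at 2279, 2207 and 2098 RPM in OPCs, 3287 and 3426 RPM in OLs and 2546 and 2777 RPM in astrocytes. All glia libraries were above all OPC libraries, with OLs above astrocytes. Its log2 change of 0.45 ± 0.14 (SE) had an adjusted p of 0.0753.

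Met-CAU, the elongator methionine tRNA, was the most abundant pool. It stood at 75277, 82431 and 76434 RPM in OPCs, 74174 and 57906 RPM in OLs and 65211 and 61488 RPM in astrocytes. OL replicate 1 came close to the OPC libraries while the other glia libraries were well below them. The log2 change was -0.28 ± 0.09 (SE), with an adjusted p of 0.0753.

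Leu-UAA, which reads UUA and UUG leucine codons, stood at 29606, 30014 and 31151 RPM in OPCs, 26226 and 26103 RPM in OLs and 26901 and 22915 RPM in astrocytes. All glia libraries were below all OPC libraries. The log2 change was -0.25 ± 0.08 (SE), with an adjusted p of 0.0774. The remaining pools named as the largest separate changes were Pro-UGG, with a log2 change of 0.27 (adjusted p = 0.241), Leu-CAG, with 0.17 (adjusted p = 0.299), and Ser-UGA, with -0.16 (adjusted p = 0.308).

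**Figure D1:**
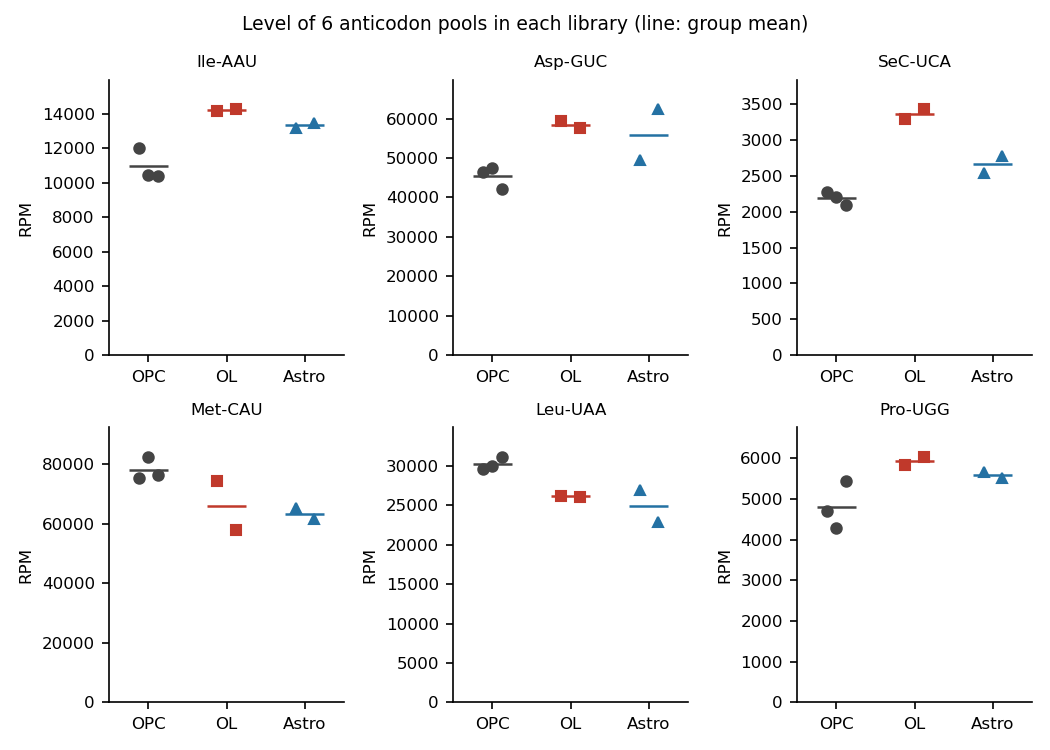
RPM of 6 anticodon pools in each library, with a panel per pool and an axis that starts at 0. Points are libraries (OPC, n = 3, OL, n = 2, Astro, n = 2) and lines are group means. Ile-AAU (10358 to 11981 RPM in OPCs against 13170 to 14234 RPM in glia) and Asp-GUC passed the threshold, and the other pools did not.

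Most anticodon pools had an interval that left little room for a large change. The 95% interval of the log2 change lay inside a 1.5-fold change in either direction for 44 of 50 pools (88%). The 6 with wider intervals were SeC-UCA, Gly-ACC, Thr-CGU, Ser-GGA, Sup-UCA and Pro-AGG. Gly-ACC, Ser-GGA and Sup-UCA were rare, with means of 52.3, 63.6 and 7.11 RPM. The median change over all 50 pools was 0.03 on the log2 scale and -0.01 after median-of-ratios scaling.

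Of the 5 most abundant pools, Met-CAU and Asp-GUC are described above, and the other 3 had changes nearer to 0. Lys-UUU, the second most abundant pool, averaged 69946 ± 4263 RPM (SD, n = 3) in OPCs and 69673 ± 7788 RPM (SD, n = 4) in glia, a log2 change of -0.01 with a 95% interval of -0.20 to 0.18. Its direction depended on single libraries, with 0.04 without OPC replicate 1. Ala-AGC had a log2 change of -0.10 (-0.26 to 0.06) and Gln-CUG one of -0.04 (-0.21 to 0.13), and the latter was 0.01 without astrocyte replicate 2. It was -0.17 (-0.37 to 0.02) for Phe-GAA and 0.11 (-0.09 to 0.31) for iMet-CAU, the initiator tRNA, which starts translation.

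**Figure D2:**
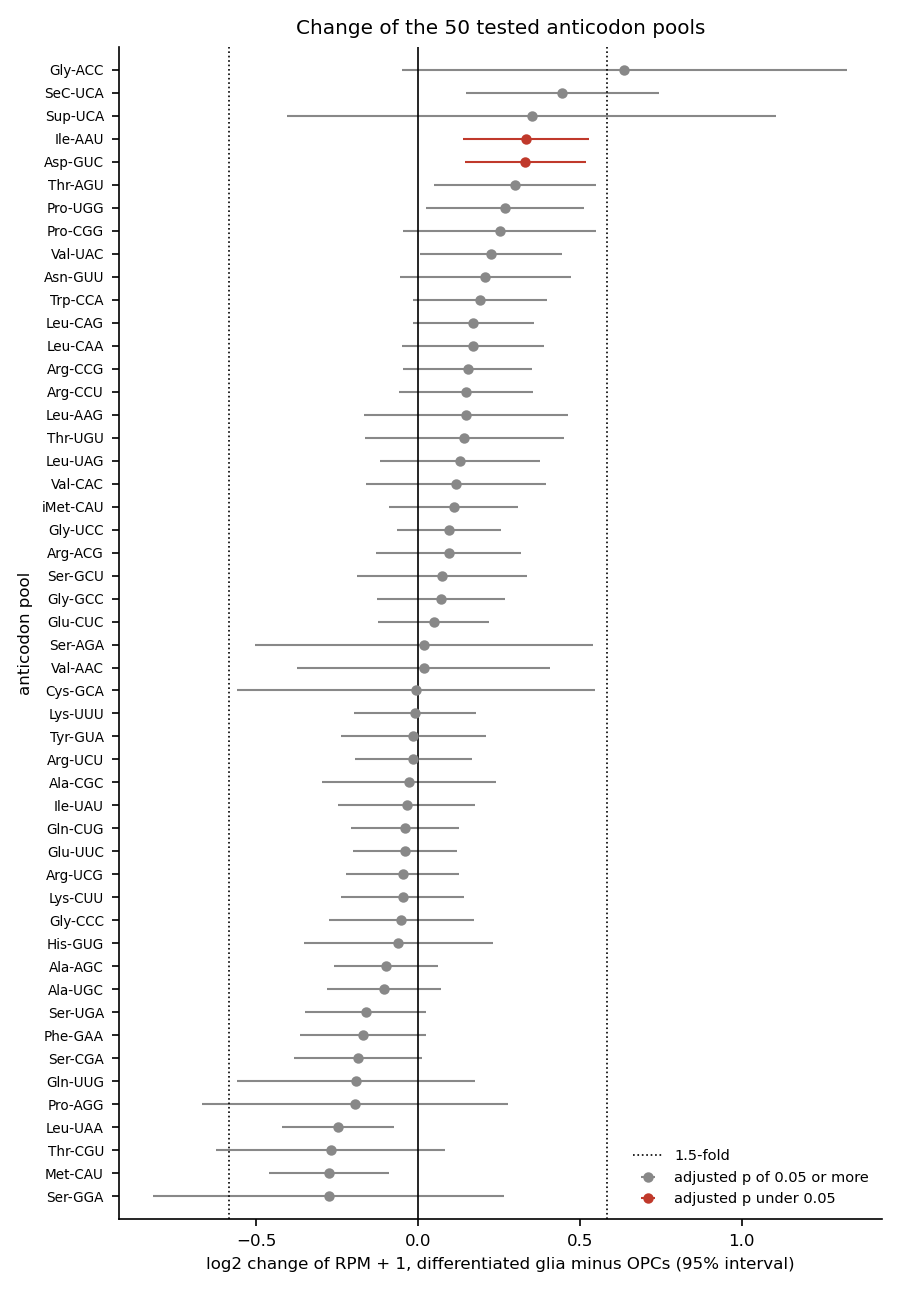
Log2 change of RPM + 1 between differentiated glia (n = 4) and OPCs (n = 3) on the horizontal axis for the 50 tested anticodon pools on the vertical axis. Points are estimates, bars are 95% intervals, and dotted lines mark a 1.5-fold change. For 44 pools the bar lies inside the dotted lines, and the 2 red pools passed the threshold.

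Whether OLs and astrocytes moved alike was read from the difference between them, since the changes of both fates are measured against the same 3 OPC libraries and share their error. Ile-AAU differed from OPCs by 0.38 ± 0.10 (SE) in OLs and 0.29 ± 0.10 in astrocytes on the log2 scale, and OLs minus astrocytes was 0.09 (95% interval -0.13 to 0.31). For Asp-GUC the values were 0.37 ± 0.11 (SE) and 0.29 ± 0.11, and the difference was 0.07 (-0.17 to 0.32). Both intervals lie inside 1.5-fold, so a divergence past 1.5-fold lies outside them. Their upper ends (0.31 and 0.32) exceed the whole astrocyte changes, however. They therefore cannot show that both fates moved by the same amount. For SeC-UCA the changes were 0.61 ± 0.13 (SE) in OLs and 0.28 ± 0.13 in astrocytes, and the difference of 0.34 (0.03 to 0.64) had an adjusted p of 0.145.

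Summed over anticodons, 0 of 22 amino acid pools (0.0%) passed with limma, 4 had an unadjusted p under 0.05 (18.2%), and the lowest adjusted p was 0.0528. The groups did not overlap for selenocysteine and aspartate, which were higher (9.09%), and for methionine and alanine, which were lower (9.09%). The largest increases were those of selenocysteine (log2 change 0.45), aspartate (0.33) and proline (0.25). The largest decreases were those of methionine (-0.28), phenylalanine (-0.17) and serine (-0.10). Selenocysteine, aspartate, methionine and phenylalanine each have a single anticodon pool here, so their log2 changes repeat those given above. For 21 of 22 pools (95.5%) the 95% interval lay inside 1.5-fold. Without astrocyte replicate 1, selenocysteine and aspartate passed.

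Of the isodecoders that passed, most were lower in glia. Of 192 tested isodecoders 17 passed (8.85%), of which 4 were higher (2.08%) and 13 lower (6.77%) in glia. The 4 that rose made up 2.46% and the 13 that fell 2.02% of cytosolic tRNA RPM. All 17 had no overlap between glia and OPC libraries, as did 45 of all 192 (23.4%), 21 of them higher (10.9%) and 24 lower (12.5%). A single isodecoder, Leu-CAA-4, reached an adjusted p under 0.01 (0.521%). At an unadjusted p under 0.05 there were 33 (17.2%), with 15 higher and 18 lower, so the excess of lower values was smaller there.

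The count of 17 depended on the libraries. Leaving out OPC replicate 2 left 0 (29 at an unadjusted p under 0.05, limma), leaving out OPC replicate 3 or OL replicate 1 left 1, and leaving out OPC replicate 1 or OL replicate 2 left 3. Removing astrocyte replicate 2 gave 8, and removing astrocyte replicate 1 gave 13. A fit of the 3 group means, in which the spread between OLs and astrocytes does not enter the error, called 33 isodecoders, among them all 17. In the other direction, 6 passed without the variance trend, 3 without a filter on low values, and 0 with a term for the replicate number (33 at an unadjusted p under 0.05, limma). Reads of isodecoders with near-identical sequences can be assigned to the wrong member, so values of minor isodecoders are less certain than those of their pools. For Phe-GAA, Lys-UUU, Arg-UCU and most Ala tRNAs the paper reports fewer sequence variants and read stops in OLs than in OPCs or astrocytes. Their part in these counts was not tested.

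The 4 that rose were Leu-AAG-2, Thr-AGU-2, Asp-GUC-2 and Ile-AAU-1. Leu-AAG-2, a rare leucine isodecoder, stood at 35.8, 24.5 and 35.8 RPM in OPCs, 49.7 and 84.7 RPM in OLs and 64.0 and 51.0 RPM in astrocytes. Glia libraries were all higher, with OL replicate 2 the highest. Its log2 change was 0.93 ± 0.25 (SE), with an adjusted p of 0.0499.

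Thr-AGU-2, the main threonine isodecoder with this anticodon (56.8% of the pool), stood at 3066, 2482 and 2998 RPM in OPCs, 4209 and 4859 RPM in OLs and 4035 and 3599.8 RPM in astrocytes. Again the glia libraries were all higher. The log2 change was 0.55 ± 0.14 (SE), with an adjusted p of 0.0425.

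The remaining pair belonged to the pools that passed as a whole. Asp-GUC-2 stood at 6162, 6139 and 5070.1 RPM in OPCs, 8332 and 7976 RPM in OLs and 6837 and 8421 RPM in astrocytes, a log2 change of 0.45 ± 0.12 (SE) with an adjusted p of 0.0429. The major member Asp-GUC-1, with 13 identical genes and 86.5% of the pool, did not overlap either, with a log2 change of 0.31 and an adjusted p of 0.053. Ile-AAU-1, with 8 identical genes and 99.7% of its pool, carried the change of that pool (log2 change 0.33 ± 0.09 SE, adjusted p = 0.0429).

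The genes of these pools are spread over the genome. In the RefSeq annotation of GRCm38 (mm10), Asp-GUC has 16 genes on 6 chromosomes, of which 5 lie on chromosome 1 between 171037029 and 171102442 and 3 on chromosome 13 between 21911313 and 21940390. Ile-AAU has 15 genes on 8 chromosomes, of which 7 lie on chromosome 13 between 21855320 and 23438182. The measured Ile-AAU pool covers 11 gene copies, so not all of these RefSeq genes belong to it. The deposited tables collapse identical genes, so the change could not be assigned to a locus.

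Among the 13 that fell, Leu-CAA-4 changed most. It stood at 567, 646 and 612 RPM in OPCs, 198 and 234 RPM in OLs and 234 and 319 RPM in astrocytes. The highest glia library was well below the lowest OPC library. The OPC mean was 608 ± 39.6 RPM (SD, n = 3) and the glia mean 246 ± 51.6 RPM (SD, n = 4). The level fell with a log2 change of -1.32 ± 0.18 (SE) and an adjusted p of 0.0069. It passed in 16 of 18 fits, the exceptions being the fit without OPC replicate 2 and the fit with a replicate term. The other Leu-CAA isodecoders, Leu-CAA-1, Leu-CAA-2 and Leu-CAA-3, had log2 changes of 0.17, 0.22 and 0.25, and none passed.

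Met-CAU-4 stood at 4186, 4777 and 5609 RPM in OPCs, 1916 and 1599 RPM in OLs and 2951 and 1970.4 RPM in astrocytes. All glia libraries were lower, astrocyte replicate 1 least so. The log2 change was -1.23 ± 0.20 (SE), with an adjusted p of 0.0121. The larger members of the elongator methionine pool, Met-CAU-1, Met-CAU-2 and Met-CAU-3, had log2 changes of -0.19, -0.29 and -0.29 and did not pass.

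A pair of lysine isodecoders with the UUU anticodon fell, although the interval of the whole pool lay inside 1.5-fold. Lys-UUU-2 stood at 2649.7, 2602 and 2874 RPM in OPCs, 993 and 978 RPM in OLs and 1855 and 1581 RPM in astrocytes. OLs were the lowest and astrocytes lay between OLs and OPCs. The log2 change was -1.06 ± 0.23 (SE), with an adjusted p of 0.0324. Lys-UUU-3 stood at 102, 111 and 106 RPM in OPCs, 40.2 and 52.3 RPM in OLs and 61.8 and 60.9 RPM in astrocytes, so that all glia libraries were lower, with a log2 change of -0.99 ± 0.20 (SE) and an adjusted p of 0.0324. The dominant Lys-UUU-1, at 97.1% of the pool, had a log2 change of 0.02 and an adjusted p of 0.893.

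The minor glycine isodecoders Gly-CCC-2 and Gly-CCC-3 fell in a pool whose interval also lay inside 1.5-fold. Gly-CCC-2 stood at 131, 174 and 280.3 RPM in OPCs, 109 and 96.6 RPM in OLs and 55.0 and 56.3 RPM in astrocytes. Astrocytes were the lowest, and OPC replicate 3 was above the other OPC libraries. The log2 changes were -1.28 ± 0.33 (SE) for Gly-CCC-2 (adjusted p = 0.0429) and -1.04 ± 0.24 for Gly-CCC-3 (adjusted p = 0.0384). Gly-CCC-1, at 96.5% of the pool, had a log2 change of -0.01.

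Ala-AGC-5 was the most abundant isodecoder that fell. It stood at 11582, 13589.7 and 14608 RPM in OPCs, 6275 and 6415 RPM in OLs and 9486 and 9943 RPM in astrocytes. Again astrocytes lay between OLs and OPCs without overlap. Its log2 change was -0.75 ± 0.18 (SE), with an adjusted p of 0.0425. Among the 9 tested Ala-AGC isodecoders Ala-AGC-1, a minor member singled out with its values already seen, fell as well (-0.68, adjusted p = 0.0429), while the main member Ala-AGC-4 had a log2 change of -0.01.

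The remaining isodecoders that fell read glutamate, asparagine, valine, serine and arginine codons. Glu-UUC-3 fell by 0.91 on the log2 scale (SE 0.19), Asn-GUU-2 by 0.79 (SE 0.17) and Val-AAC-2 by 0.77 (SE 0.20), with adjusted p of 0.0324, 0.0324 and 0.0429. Ser-GCU-1 and Arg-UCU-5, which also passed but are named only because their values had been seen, fell by 0.68 and 0.61 on the log2 scale.

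Arg-UCU-4, an arginine isodecoder known for its enrichment in the nervous system, stood at 721, 883 and 822 RPM in OPCs, 1292 and 1431 RPM in OLs and 1111 and 987 RPM in astrocytes. All glia libraries were higher. The log2 change of 0.57 ± 0.16 (SE) did not pass, with an adjusted p of 0.0641, and the log2 change lay between 0.48 and 0.66 over all fits. The pool it belongs to thus held a minor member with higher and another (Arg-UCU-5) with lower values in glia. Arg-UCU-2 was also separate between the groups and lower in glia (log2 change -0.53, adjusted p = 0.0965).

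**Figure D3:**
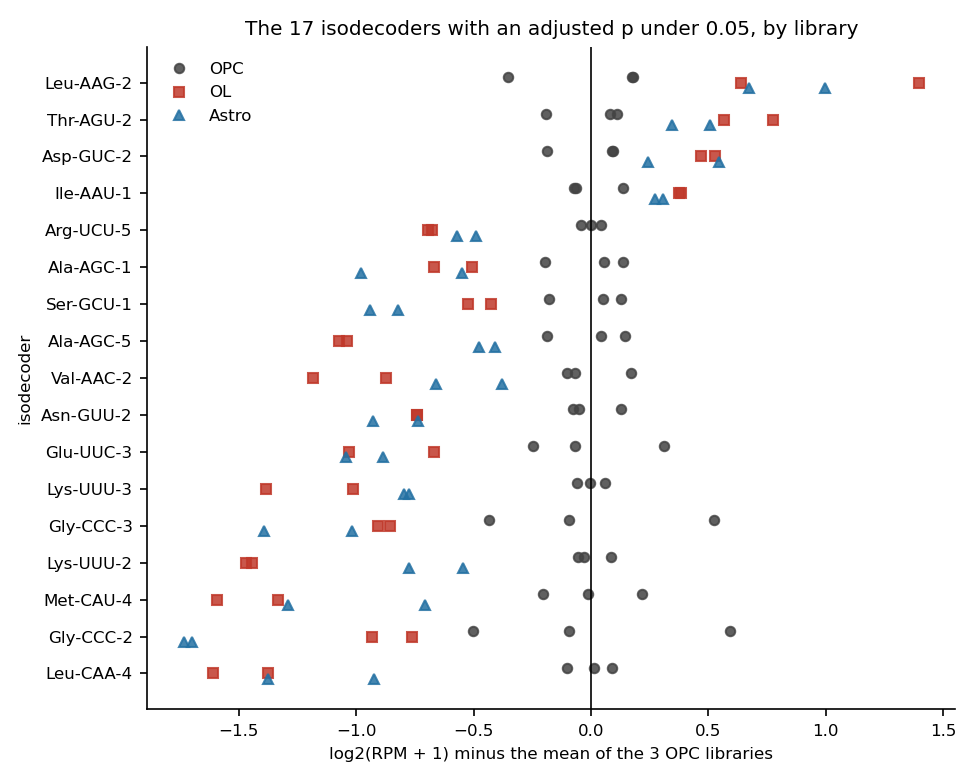
The 17 isodecoders that passed, on the vertical axis, with log2(RPM + 1) of each library minus the mean of the 3 OPC libraries on the horizontal axis. Points are libraries, marked by group (OPC, n = 3, OL, n = 2, Astro, n = 2). Glia and OPC libraries do not overlap for any of them, and the 4 at the top are higher in glia.

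Most of the isodecoders that fell were minor members of their pools. They made up a median of 2.77% of their pool (range 0.110% to 16.3%), against 10.4% over all 192, and 11 of the 13 made up under 10%. The 4 that rose had a median of 35.1% (range 2.15% to 99.7%). Among the 95 isodecoders under 10% of their pool 12 passed and the median absolute log2 change was 0.31. Among the other 97 it was 0.19, and 5 passed. With the sign kept, the medians were 0.08 and 0.02, so minor isodecoders as a class were not lower in glia. The median level of those that fell was 401 RPM against 713 RPM over all. The level and the percent of the pool move together, and the part of the level in these counts was not tested. Of the isodecoders encoded by a single gene 11 of 135 passed (8.15%), and of those with several identical copies 6 of 57 (10.5%).

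**Figure D4:**
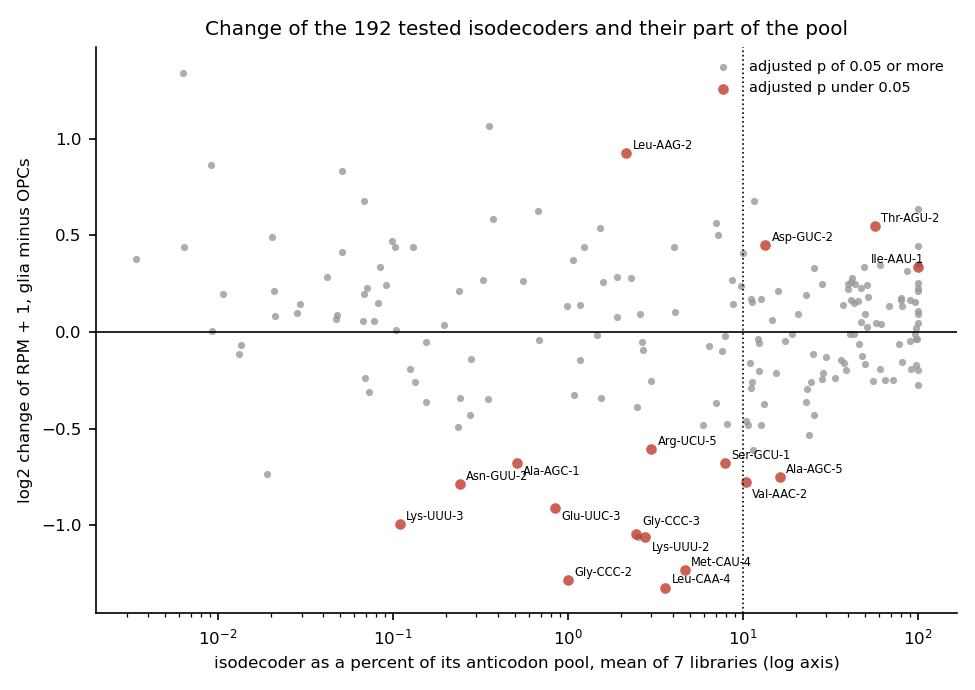
Log2 change of RPM + 1 between glia (n = 4) and OPCs (n = 3) for the 192 tested isodecoders against their mean percent of the anticodon pool (log axis). Each point is an isodecoder, red points passed the threshold, and the dotted line marks 10% of the pool. Of the 13 red points below 0, 11 lie left of the dotted line.

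OLs and astrocytes were compared directly for the isodecoders that passed. The pooled fit counts the spread between OLs and astrocytes as error. Isodecoders that differ between the fates were therefore less likely to pass, and the counts here depend on that selection. Of the 17, 2 differed between the fates (adjusted p under 0.05), against 18 of all 192 tested isodecoders. An unadjusted p under 0.05 was reached by 6 of the 17, and 4 had a 95% interval of the difference inside 1.5-fold. These 4 were Thr-AGU-2, Asp-GUC-2, Ile-AAU-1 and Arg-UCU-5, of which the first 3 rose. For those 3 the margin of 1.5-fold (0.585 on the log2 scale) exceeds the whole change against OPCs (0.55, 0.45 and 0.33). Their narrow intervals therefore cannot show that both fates moved alike. For Asp-GUC-2 the log2 change from OPCs was 0.50 ± 0.13 (SE) in OLs and 0.40 ± 0.13 in astrocytes, with a difference of 0.10 (-0.20 to 0.41).

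The isodecoders that differed between the fates were Lys-UUU-2 and Ala-AGC-5. The paper reports fewer sequence variants and read stops in OLs than in astrocytes for Lys-UUU and most Ala tRNAs. Their part in these differences was not tested. Lys-UUU-2 was lower than in OPCs by a log2 change of -1.46 ± 0.12 (SE) in OLs and -0.66 ± 0.12 in astrocytes, and OLs minus astrocytes was -0.80 (-1.09 to -0.50, adjusted p = 0.0046). For Ala-AGC-5 the values were -1.06 ± 0.11 and -0.44 ± 0.11, and the difference was -0.61 (-0.88 to -0.35, adjusted p = 0.0076). Neither difference passed without OL replicate 1 or without OL replicate 2. For Leu-CAA-4 the changes were -1.49 ± 0.18 in OLs and -1.15 ± 0.18 in astrocytes, and the interval of the difference (-0.79 to 0.10) extends past 1.5-fold. For Gly-CCC-2 astrocytes had the larger change, with -1.72 ± 0.29 against -0.85 ± 0.29, and the difference of 0.87 (0.16 to 1.58) had an adjusted p of 0.114.

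The share of an isodecoder in its anticodon pool is measured apart from the level of the pool as a whole. Of 184 isodecoders in the 42 pools with several members, 11 changed in share (5.98%), 3 upwards (1.63%) and 8 downwards (4.35%). For 45 (24.5%) the groups did not overlap, 19 of them higher (10.3%) and 26 lower (14.1%). None reached an adjusted p under 0.01 with limma, 37 had an unadjusted p under 0.05 (20.1%), and the lowest adjusted p was 0.0140. Of these 11, 8 had also passed by level, which is 72.7% of the share calls and 47.1% of the level calls. For a minor member of a pool that changed little, the changes in level and in share are nearly the same. This overlap is therefore no independent support for the calls. Leaving out OPC replicate 3 left 0 calls (32 at an unadjusted p under 0.05, limma), leaving out OPC replicate 2 left 1, OPC replicate 1 left 4 and OL replicate 1 left 6.

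The shares that rose were iMet-CAU-3, iMet-CAU-2 and Ala-AGC-6. iMet-CAU-2 made up 0.116%, 0.111% and 0.111% of the initiator pool in OPCs, 0.139% and 0.149% in OLs and 0.144% and 0.142% in astrocytes. The glia libraries were all higher and lay close to each other. The log2 change of the share was 0.33 ± 0.04 (SE), with an adjusted p of 0.0140, and OLs minus astrocytes was 0.00 (-0.13 to 0.12). iMet-CAU-3 rose from 0.300% ± 0.0175 (SD, n = 3) to 0.420% ± 0.0345 (SD, n = 4), with a log2 change of 0.48 and an adjusted p of 0.0277. Both are rare members, with means of 19.0 RPM in OPCs and 26.2 RPM in glia for iMet-CAU-2, beside iMet-CAU-1 at 99.5% of the pool.

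Ala-AGC-6 made up 10.2%, 10.0% and 10.3% of its pool in OPCs, 12.5% and 12.8% in OLs and 11.7% and 11.6% in astrocytes. The groups did not overlap, and OLs were the highest. Its share rose by a log2 change of 0.25 ± 0.04 (SE), with an adjusted p of 0.0284.

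The shares that fell were led by Leu-CAA-4, which made up 5.24%, 6.17% and 6.20% of its pool in OPCs, 1.63% and 1.87% in OLs and 2.39% and 2.56% in astrocytes. All glia libraries were below all OPC libraries, and OLs were the lowest. The log2 change was -1.49 ± 0.18 (SE), with an adjusted p of 0.0140. Lys-UUU-2 made up 3.56%, 3.94% and 4.14% in OPCs, 1.51% and 1.54% in OLs and 2.29% and 2.31% in astrocytes, with a log2 change of -1.05 (adjusted p = 0.0314). OLs and astrocytes differed for this share by -0.59 (-0.79 to -0.39, adjusted p = 0.0141).

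Asn-GUU-2, Lys-UUU-3 and Glu-UUC-3 fell in share by 0.99, 0.98 and 0.87 on the log2 scale, with adjusted p of 0.0140, 0.0185 and 0.0284. The shares of Ser-GCU-1, Arg-UCU-5 and Ala-AGC-1, also named only because their values had been seen, fell by 0.75, 0.59 and 0.58. Ser-GCU-1 made up 9.33%, 12.3% and 9.59% of its pool in OPCs, 6.43% and 6.02% in OLs and 6.06% and 6.02% in astrocytes. The glia libraries lay close together and below OPCs, and the interval of OLs minus astrocytes, -0.34 to 0.42, lay inside 1.5-fold, as it did for 6 of the 11 shares.

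**Figure D5:**
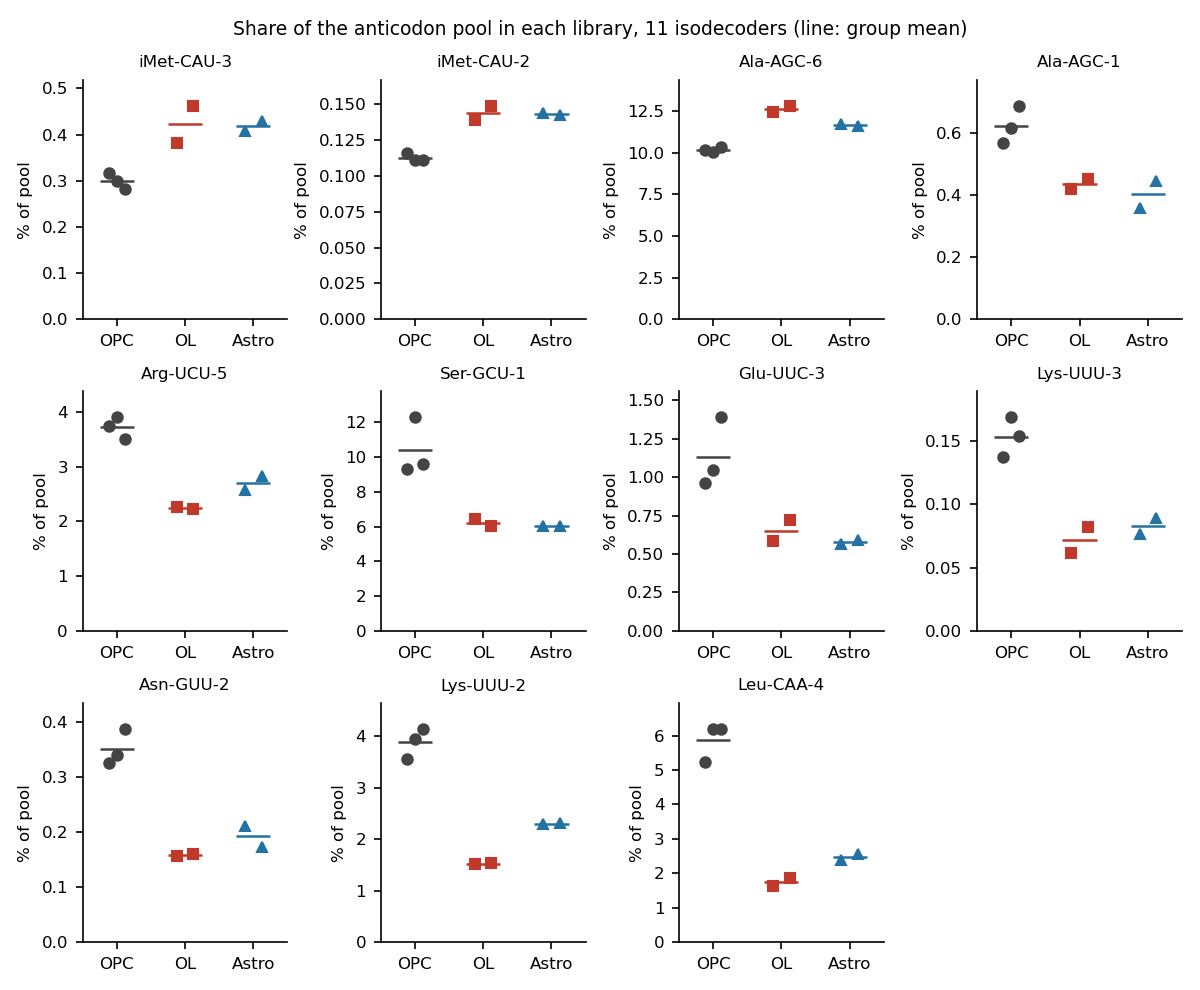
Share of the anticodon pool, in percent, in each library for the 11 isodecoders whose share passed, with a panel per isodecoder and an axis that starts at 0. Points are libraries (OPC, n = 3, OL, n = 2, Astro, n = 2) and lines are group means. The first 3 panels show shares that rose, such as Ala-AGC-6 from 10.0% to 10.3% in OPCs to 11.6% to 12.8% in glia, and the other 8 shares that fell.

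Groups of tRNAs with a common feature were described by their counts and medians, beside the median log2 change of 0.03 over all 50 anticodons and 0.05 over all 192 isodecoders. Over all of them 4.0% of anticodons rose, and 2.08% of isodecoders rose and 6.77% fell. Of the 4 queuosine-type anticodons (Asp-GUC, Asn-GUU, His-GUG and Tyr-GUA) 1 passed, Asp-GUC, against 4.0% over all, and their median was 0.10. Their 14 isodecoders had a median of 0.21, with 1 that rose (7.14%, against 2.08% over all) and 1 that fell (7.14%, against 6.77%).

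Of the 4 anticodons whose wobble uridine carries the mcm5s2 modification (Lys-UUU, Glu-UUC, Gln-UUG and Arg-UCU) 0 passed with limma, also at an unadjusted p under 0.05, with a median of -0.03 and a range of -0.19 to -0.01. Of their 16 isodecoders 4 fell (Lys-UUU-2, Lys-UUU-3, Glu-UUC-3 and Arg-UCU-5), or 25% against 6.77% over all, and their median was -0.07. This excess was not tested. At an unadjusted p under 0.05 these counts were 5 lower and 1 higher, against 18 lower and 15 higher among all 192 isodecoders. The levels counted here do not measure the modification itself. The paper lists Arg-UCU among the tRNAs with this modification. On gels that slow sulfur-containing tRNAs, it saw no shift of Arg-UCU in any cell type.

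Of the 8 anticodons with a wobble inosine 1 rose, Ile-AAU (12.5%, against 4.0% over all), and their median was 0.06. Their 34 isodecoders held 3 that rose (Leu-AAG-2, Thr-AGU-2 and Ile-AAU-1) and 3 that fell (Val-AAC-2, Ala-AGC-5 and Ala-AGC-1), with a median of 0.02. Both shares were 8.82%, against 2.08% rising and 6.77% falling over all. The long variable arm class, which comprises leucine, serine and selenocysteine tRNAs, held 11 anticodons, of which 0 passed with limma. An unadjusted p under 0.05 was reached by 2 of them, against 16.0% of all 50 anticodons. The groups did not overlap for 4, 2 in each direction, against 18.0% of all 50. The 33 isodecoders of this class held 1 that rose (3.03%, against 2.08%) and 2 that fell (6.06%, against 6.77%), which is near the shares over all.

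Of the 24 anticodons of amino acids whose synthetases form the multi-tRNA synthetase complex 2 rose (8.33%, against 4.0% over all), with a median of 0.07. Of their 85 isodecoders 3 rose (3.53%, against 2.08%) and 6 fell (7.06%, against 6.77%), again near the shares over all. By the first base of the anticodon, the medians were 0.09 for A (9 anticodons), 0.08 for C (16), -0.01 for G (9) and -0.02 for U (15). Among isodecoders with C or U in that position 4 of 70 (5.71%) and 4 of 47 (8.51%) fell, against 6.77% over all. At an unadjusted p under 0.05 the counts were 5 lower and 4 higher for C and 6 lower and 4 higher for U. Among all 192 isodecoders they were 18 lower and 15 higher.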

How the data were processed

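QuantM-seq libraries of 3 OPC, 2 OL and 2 astrocyte cultures were grouped by their deposited titles. The authors trimmed adapters and the 3′ CCA with cutadapt, mapped reads with Bowtie2 to high-confidence mature tRNAs of GtRNAdb for mm10, collapsed to unique sequences, with mitochondrial tRNAs, and counted reads per isodecoder with featureCounts. The RPM values deposited by the authors cover cytosolic tRNAs, for single isodecoders and as sums over each anticodon. Their scaling covers reads of all tRNAs, so a rise of some tRNAs lowers the RPM of others, and near-identical isodecoders depend on how reads were assigned. Deposited tables of the authors' own DESeq2 comparison of OPCs and OLs hold fold changes and p-values and were not used. Within a library every value corresponded to a whole number of reads (tolerance 0.1 read), which gave the read totals. Counts were not tested, because too few low values per library carry that step. Limits for a value of 0 and the percent of reads outside cytosolic tRNAs cover counting error only, and no pair of replicates agreed within counting error (chi-square per degree of freedom 31.0 to 194.9).

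RPM were compared as log2(RPM + 1), which understates changes of low tRNAs, with limma 3.58.1 in R 4.3.3 in a fit of glia (n = 4) against OPCs (n = 3). A variance trend over mean level was used for anticodons and isodecoders. Tests were two-sided with Benjamini-Hochberg adjustment over the features of each level, with a threshold of 0.05, the study's general threshold. Features had a mean of at least 1 RPM. OLs and astrocytes were compared in a fit of the 3 group means. Shares were log2(RPM + 1) of an isodecoder minus that of its pool. Scripts were tested on simulated data. Named were, per direction, up to 10 anticodons and isodecoders and 5 shares with the largest changes among those that passed without overlap, and 3 that did not pass where fewer than 3 passed. For amino acids the 3 largest changes were named. Named in any case were the 5 most abundant anticodons, SeC-UCA, iMet-CAU, Phe-GAA, Lys-UUU, Leu-UAA and Arg-UCU-4. Isodecoder sequences were not used here. The members, lists and rules were chosen with earlier results of these data known. The study calls the replicates independent experiments, and p-values measure the spread between these cultures, not between animals. Alternatives covered pseudocounts of 0.1 and 10, filters, scalings, the variance trend, the threshold, a replicate term and leaving out each library.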

Additional observations from a re-analysis of the deposited data

Results flagged for a closer look

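Differences between OLs and astrocytes in tRNAs named for their change against OPCs drew attention in 4 cases. OLs minus astrocytes was -0.80 on the log2 scale for the level of Lys-UUU-2 and -0.59 for its share of the pool, -0.61 for the level of Ala-AGC-5, and 0.34 for the summed selenocysteine pool, each with an adjusted p under 0.05 from limma. For the same tRNA counted among the anticodons, SeC-UCA, the adjusted p was 0.145.

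A single library stood apart from the other 3 glia libraries in 3 cases by Dixon's ratio of its gap to the range, beyond the 95% critical value for 4 libraries. The ratio was 0.966 for the level of Asn-GUU-2, where astrocyte replicate 1 was lowest with 64.4 RPM against 73.5 to 73.8 RPM. It was 0.863 for the share of Glu-UUC-3, where OL replicate 2 was highest with 0.719%, and 0.904 for the share of Ser-GCU-1, where OL replicate 1 was highest with 6.43%. Of 49 groups examined chance would mark about 1 in 20.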

How the results depend on the processing

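Of 2 anticodons that passed, 0 did with limma without a filter on low values, at a minimum of 100 RPM, with median-of-ratios scaling, without the variance trend or at a threshold of 0.01, and also without the filter but leaving out tRNAs listed at 0 in every library, an alternative chosen after seeing the data. In these fits 8 to 9 had an unadjusted p under 0.05. Rescaling to the listed tRNAs gave 4, with Leu-UAA lower and SeC-UCA higher in addition. Of 17 isodecoders 3 remained without a filter and 6 without the variance trend, and 1 at a threshold of 0.01. The fit of 3 group means called 33 isodecoders, 32 shares (11 in the reported fit, 0 at 0.01) and 1 amino acid (0 in the reported fit, 1 after rescaling and 2 with a variance trend). The count of OL and astrocyte differences among isodecoders that passed (2 in the reported fit) was 1 without the variance trend and 4 with median-of-ratios scaling.

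Leaving out a library at a time gave 0 to 7 anticodons, 0 to 13 isodecoders, 0 to 2 amino acids, 0 to 12 shares, 0 to 3 OL and astrocyte differences and 38 to 43 pools with an interval inside 1.5-fold (44 in the reported fit). The difference in reads outside cytosolic tRNAs ranged from -1.18 to 0.259 points, with 0.142 without OL replicate 2. Lys-UUU ranged from -0.0846 (without astrocyte replicate 1) to 0.0359 (without OPC replicate 1), with 0.02 without OL replicate 1 and 0.03 without OL replicate 2, and Gln-CUG from -0.0662 to 0.00735. The cause was not tested. Among the named tRNAs 526 values under an alternative kept direction and side of the threshold, 222 lost the call, 17 gained it and 4 reversed, all of them for Lys-UUU and Gln-CUG.

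With the replicate number as a block, 0 anticodons, 0 isodecoders and 1 share (not among the 11) passed, with 8, 33 and 27 at an unadjusted p under 0.05. The labels share these numbers, but same-numbered libraries did not all deviate together, since the correlations of their deviations took both signs, with 0.118 and -0.111 between OPCs and OLs, -0.075 and 0.343 between OPCs and astrocytes and -0.294 between OLs and astrocytes. The study's methods derive the OL cultures from OPC replicates without giving the numbers. Crossing the numbers of OLs and astrocytes, chosen after seeing the data, gave 4 differences between them. Depth limits the tRNAs near 2.24 RPM, and 3 and 2 cultures per group limit the rest.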

Other observations

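The largest log2 change among the tested isodecoders, 1.34, was that of Leu-UAA-4, which did not pass (adjusted p = 0.0965). Its means were 0.386 RPM in OPCs and 2.76 RPM in glia, near the value of 3 reads, so no fold is given.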
